A study of Mus musculus with 8 samples.

Results

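The genes described here are 8 transcription factor genes known for their roles in liver, *Foxa1*, *Foxa2*, *Foxa3*, *Cebpa*, *Cebpb*, *Onecut1*, *Gata4* and *Prox1*. They were examined for called ERRα ChIP-seq intervals annotated to them and centred within 20 kb of a transcription start site (TSS). The 8 were chosen by name, out of 21900 RefSeq protein-coding genes, and 51 of the 126927 intervals in 4 peak lists met the rule. They comprised 13 intervals in WT liver, 18 in ERRα3SA liver, 7 in WT skeletal muscle and 13 in ERRα3SA skeletal muscle.

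The lists came from an antibody against ERRα (Abcam ab76228) applied to liver and to skeletal muscle (gastrocnemius and soleus) of male C57BL/6N mice aged 2 to 3 months. The mice were WT or carried the ERRalpha 3SA phospho-mutant form (ERRα3SA), in which 3 phosphosites of the receptor are inactivated by mutation. Each genotype and tissue had 1 ChIP library, made from pooled ChIPs, whose number the labels and the methods give differently, of tissue pooled from 2 mice for liver and from 5 mice for muscle. The lists held 21813 intervals in WT liver, 29040 in ERRα3SA liver, 25427 in WT muscle and 50647 in ERRα3SA muscle. With 1 library per group, no test between genotypes or tissues could be run. How deeply each library was read is unknown, since reads were not analysed here, and an interval absent from a list may lie just under the calling threshold. Intervals of proportions are 95% Wilson intervals and cover counting error only. The score of an interval, a number from the peak caller, was read as a rank within its own list, given as a top percent in which small values are strong.

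ERRα is an orphan nuclear receptor that binds DNA at the ERR response element (ERRE) and acts with PGC-1 coactivators on genes of energy metabolism. FOXA proteins are pioneer factors that open liver enhancers, and C/EBP, Onecut, GATA and PROX factors act with them and with nuclear receptors in a cross-regulating network that sets hepatocyte identity and metabolism. Several of the 8 also serve other tissues: C/EBPα and C/EBPβ act in adipocytes and myeloid cells, GATA4 in heart and PROX1 in lymphatic endothelium. Bulk tissue contains such cells, and which cells an interval came from cannot be told apart.

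The ERRE was searched as TCAAGGTCA and in a looser form, TNAAGGTCA, which includes the first, on both strands. The sequences below are the 5 places where a called interval of these genes held the looser form, and *Cebpa* +6.8 kb holds the exact form. They are shown because they are all the matches to either form of the ERRE in these genes' intervals. Each window holds 129 bases of GRCm38.p6, read on the strand of the element, which is in capitals. The list given for each is where the element itself lay in a called interval, since some of the flanking bases run past the interval's end. *Cebpa* +4.7 kb is chr7:35123882-35124010 on the plus strand, with its element in intervals of both livers. *Cebpa* +6.8 kb is chr7:35126024-35126152 on the plus strand, with its element in an interval of WT liver alone. *Cebpa* +7.9 kb is chr7:35127113-35127241 on the minus strand, with its element in intervals of all 4 lists. *Cebpb* −1.6 kb is chr2:167687220-167687348 on the minus strand and *Gata4* −484 bp is chr14:63245691-63245819 on the plus strand, both with their element in intervals of both livers. None of these bases is annotated as exon.
Cebpa +4.7 kb: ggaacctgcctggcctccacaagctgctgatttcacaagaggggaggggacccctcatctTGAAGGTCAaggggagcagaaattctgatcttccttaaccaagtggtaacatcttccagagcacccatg
Cebpa +6.8 kb: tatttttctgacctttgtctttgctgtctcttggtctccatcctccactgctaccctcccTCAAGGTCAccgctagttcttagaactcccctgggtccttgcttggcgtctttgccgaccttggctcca
Cebpa +7.9 kb: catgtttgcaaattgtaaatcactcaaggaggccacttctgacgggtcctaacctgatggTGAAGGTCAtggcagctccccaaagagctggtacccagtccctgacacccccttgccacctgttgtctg
Cebpb -1.6 kb: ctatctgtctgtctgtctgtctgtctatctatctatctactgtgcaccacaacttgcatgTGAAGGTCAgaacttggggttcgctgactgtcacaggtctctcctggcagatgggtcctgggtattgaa
Gata4 -484 bp: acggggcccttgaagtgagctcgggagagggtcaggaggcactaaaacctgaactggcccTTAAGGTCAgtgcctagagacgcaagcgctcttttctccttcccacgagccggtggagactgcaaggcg

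Of the 9 sites with intervals of more than 1 list, the common stretch of 5 is shown next, up to 300 bases around its middle, because these are places where the lists met. Not shown are the exon 2 sites of *Foxa1* and *Foxa3*, which lie in exons, the *Cebpa* site at +4.7 kb, whose element is above, and the *Cebpa* promoter, where an ERRα3SA liver and a WT muscle interval overlapped. All are on GRCm38.p6, hold no exonic base and are read on the strand of the gene. *Cebpa* +7.8 kb is chr7:35126990-35127191 (plus strand), common to all 4 lists, with the looser ERRE and a C/EBP element (TTGCNNAA) in capitals. *Cebpb* −1 kb is chr2:167687792-167688091 (plus strand), common to both livers and ERRα3SA muscle, with a C/EBP element and a GATA element (AGATAA) in capitals. The *Foxa2* promoter stretch is chr2:148046708-148046806 (minus strand), common to the same 3 lists, with a GATA element in capitals. The *Gata4* promoter stretch is chr14:63245602-63245901 (minus strand), common to both livers, with the looser ERRE in capitals. *Prox1* −3.6 kb is chr1:190174186-190174485 (minus strand), common to both livers, in which none of the elements searched was found.
Cebpa +7.8 kb: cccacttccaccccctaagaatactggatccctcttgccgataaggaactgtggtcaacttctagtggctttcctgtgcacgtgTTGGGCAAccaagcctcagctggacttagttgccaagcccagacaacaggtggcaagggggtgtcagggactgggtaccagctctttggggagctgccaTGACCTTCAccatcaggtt
Cebpb -1 kb: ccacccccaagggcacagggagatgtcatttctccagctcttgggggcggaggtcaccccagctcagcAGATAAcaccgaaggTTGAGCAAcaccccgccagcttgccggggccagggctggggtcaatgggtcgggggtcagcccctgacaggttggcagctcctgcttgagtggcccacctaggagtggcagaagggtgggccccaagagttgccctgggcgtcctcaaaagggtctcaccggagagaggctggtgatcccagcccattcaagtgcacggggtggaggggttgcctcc
Foxa2 promoter: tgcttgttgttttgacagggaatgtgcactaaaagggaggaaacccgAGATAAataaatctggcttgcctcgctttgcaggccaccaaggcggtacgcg
Gata4 promoter: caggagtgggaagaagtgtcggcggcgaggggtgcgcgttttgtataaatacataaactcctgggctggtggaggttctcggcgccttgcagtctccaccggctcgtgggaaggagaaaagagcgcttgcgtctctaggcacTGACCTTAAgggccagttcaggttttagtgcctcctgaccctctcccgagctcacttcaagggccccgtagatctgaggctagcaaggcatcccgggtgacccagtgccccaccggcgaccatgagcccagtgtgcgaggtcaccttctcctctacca
Prox1 -3.6 kb: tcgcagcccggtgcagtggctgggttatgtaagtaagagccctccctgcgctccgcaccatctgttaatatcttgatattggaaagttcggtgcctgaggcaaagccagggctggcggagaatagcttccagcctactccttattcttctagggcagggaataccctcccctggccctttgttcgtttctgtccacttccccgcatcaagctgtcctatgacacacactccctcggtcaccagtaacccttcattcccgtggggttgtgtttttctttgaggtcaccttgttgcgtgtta

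Every one of the 8 genes had an interval within 20 kb in both liver lists as deposited. Among all 21900 RefSeq protein-coding genes the share was 29.9% in WT liver and 37.7% in ERRα3SA liver. In muscle 5 of 8 genes had an interval in WT and 6 of 8 in ERRα3SA, where the shares of all genes were 34.5% and 47.9%. The liver count rested on weak intervals. With scores of at least 50 it was 3 genes in WT and 4 in ERRα3SA liver, and with scores of at least 100 it was 1 and 4. The share of all genes at these score limits was not computed, so these counts cannot be set against 29.9% and 37.7%. With the ERRα3SA liver list shortened to the length of the WT list, the members' count in it was 7. *Foxa1* and *Foxa3*, both with a best score of 37, lay among 3714 intervals tied at the lowest score kept. The order of the deposited list, not the score, decided which of the tied intervals stayed. The 95% interval of the members' share over the full lists was 67.6 to 100% in each liver list, 30.6 to 86.3% in WT muscle and 40.9 to 92.9% in ERRα3SA muscle. In the full lists the liver interval lies above the share of all genes, and the muscle interval includes it. The members' share was also above that of all genes in muscle, at 62.5% in WT and 75.0% in ERRα3SA. The liver and muscle intervals overlap, so they cannot tell the tissues apart. The 8 genes were chosen with earlier results of these data known, so the intervals are no test. *Onecut1* had no interval in either muscle list, *Foxa2* and *Prox1* had none in WT muscle and *Foxa3* had none in ERRα3SA muscle.

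**Figure D1:**
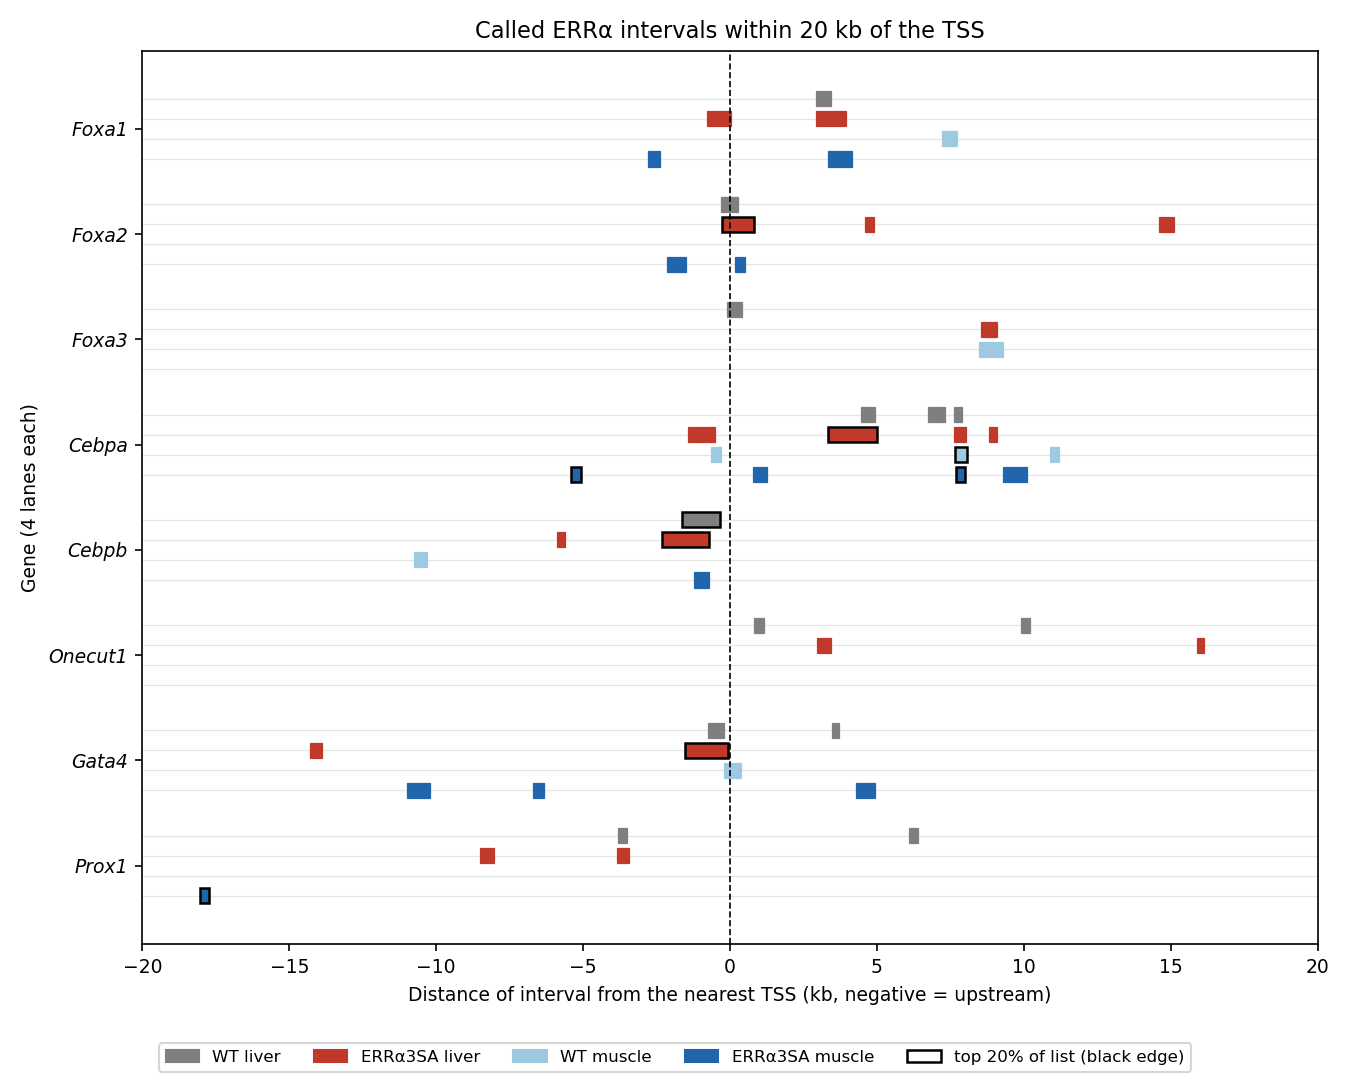
Called ERRα intervals of the 8 genes, drawn to width at their distance from the nearest TSS (kb, negative upstream), with 1 lane per list and a black edge where the interval ranks in the top 20% of its list. The dashed line marks the TSS; WT liver had 13 intervals, ERRα3SA liver 18, WT muscle 7 and ERRα3SA muscle 13, and the *Cebpa* site at +7.8 kb was the only one with an interval in all 4 lanes.

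Most of these intervals were of ordinary or weak rank. Only 1 of 13 in WT liver and 4 of 18 in ERRα3SA liver were in the top 20% of their list, against 23.6% and 22.3% of all intervals within 20 kb of a TSS. In muscle 1 of 7 in WT and 3 of 13 in ERRα3SA were in the top 20%, against 25.1% and 23.6%. The median top percent was 57.4 in WT liver, 58.2 in ERRα3SA liver, 40.2 in WT muscle and 38.7 in ERRα3SA muscle. Over all intervals within 20 kb the median ranks were 9851 (top 45.2%), 13000 (44.8%), 10219 (40.2%) and 19604 (38.7%) in the same order. The members' median was thus weaker than that of all in liver and equal to it in muscle. In muscle 8534 WT and 17824 ERRα3SA intervals tied at the lowest score of 30, against 15 and 134 in liver. Ties take the best rank, so these muscle intervals stood at top 66.4% and 64.8%. Scores were under 50 for 10 of 13 intervals in WT liver and 13 of 18 in ERRα3SA liver, against 57.7% and 52.6% of all intervals within 20 kb, where the lowest score in any list was 30.

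**Figure D2:**
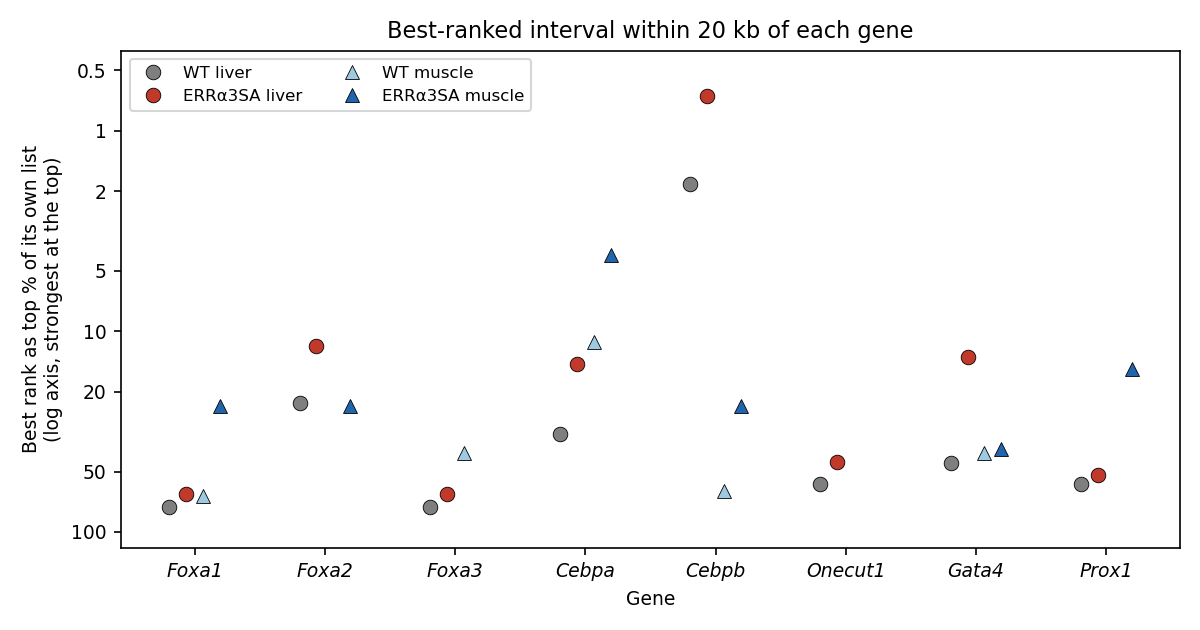
Rank of the best interval within 20 kb of each gene, as the top percent of its own list on a log axis with the strongest at the top, for liver (circles) and muscle (triangles). A missing symbol means no interval in that list; *Cebpb* in liver, at 1.84% and 0.675%, stands above every other gene, and the best *Cebpa* interval ranked higher in the muscle list than in the liver list of the same genotype.

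Of the C/EBP genes, *Cebpb*, which encodes a leucine zipper activator of the acute-phase response and of gluconeogenic genes, had the strongest liver interval of the 8. In WT liver chr2:167687269-167688559 (1291 bp, centre 1001 bp upstream of the TSS) had a score of 511 and rank 402, in the top 1.84%. In ERRα3SA liver chr2:167686598-167688193 (1596 bp, centre 1520 bp upstream) had a score of 979 and rank 196, in the top 0.675%. Ordered by their best interval, *Cebpb* was gene 243 of 7515 in WT liver and 129 of 9437 in ERRα3SA liver. The intervals overlapped but their centres lay 519 bp apart, so that a limit of 300 bp between centres, which follows the distance the study used to intersect its lists, did not count them as shared.

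In ERRα3SA muscle the same *Cebpb* region held chr2:167687689-167688215 with rank 11987 (top 23.7%), and in WT muscle no interval was called there. The only *Cebpb* interval in WT muscle lay 10545 bp upstream at rank 15869 (top 62.4%). ERRα3SA liver had a second, weak interval 5757 bp upstream at rank 23394, in a sequence annotated as an LTR repeat. Both liver intervals near −1 kb contained TGAAGGTCA at chr2:167687280-167687288, and the ERRα3SA muscle interval did not reach it. This element lay 630 bp from the centre of the WT interval and 111 bp from that of the ERRα3SA interval. Neither liver interval held the exact ERRE, as was the case for 151 of the 255 WT and 80 of the 129 ERRα3SA intervals within 20 kb of a TSS that ranked at least as high.

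*Cebpa*, which encodes the C/EBP factor required for neonatal glucose homeostasis and hepatocyte maturation, had the most intervals of the 8, with 3 in WT liver, 4 in ERRα3SA liver, 3 in WT muscle and 4 in ERRα3SA muscle. Having at least as many was the case for 10.6% and 7.34% of the genes with an interval in WT and ERRα3SA liver, and for 10.8% and 11.0% in muscle. The site at +7.8 kb was the only one of the 36 merged sites of these genes in all 4 lists. Its rank was 9851 (top 45.2%) in WT liver and 11212 (top 38.6%) in ERRα3SA liver. In muscle it was 2872 (top 11.3%) in WT and 2107 (top 4.16%) in ERRα3SA. The site thus stood higher in the muscle lists than in the liver lists, in both genotypes. The 4 intervals all contained TGAAGGTCA at chr7:35127173-35127181, which lay 124, 58, 35 and 37 bp from their centres in the order of the lists above.

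The other *Cebpa* liver intervals downstream of the gene overlapped no muscle interval. At +4.7 kb in WT liver chr7:35123758-35124209 (452 bp) had a score of 49 and rank 8204 (top 37.6%). The ERRα3SA interval there, chr7:35122630-35124290, was 1661 bp wide and had a score of 135 and rank 4219 (top 14.5%), with its centre 523 bp away. Both contained TGAAGGTCA at chr7:35123942-35123950. At +7.0 kb an interval of WT liver alone, chr7:35126043-35126615 at rank 7108 (top 32.6%), held TCAAGGTCA at chr7:35126084-35126092, 241 bp from its centre. It was the only exact ERRE in any interval of the 8 genes within 20 kb. ERRα3SA liver alone had an interval in the *Cebpa* promoter at rank 18337, centred 978 bp upstream and overlapping a WT muscle interval centred 479 bp upstream, and a very weak one at +8.9 kb (top 97.1%).

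**Figure D3:**
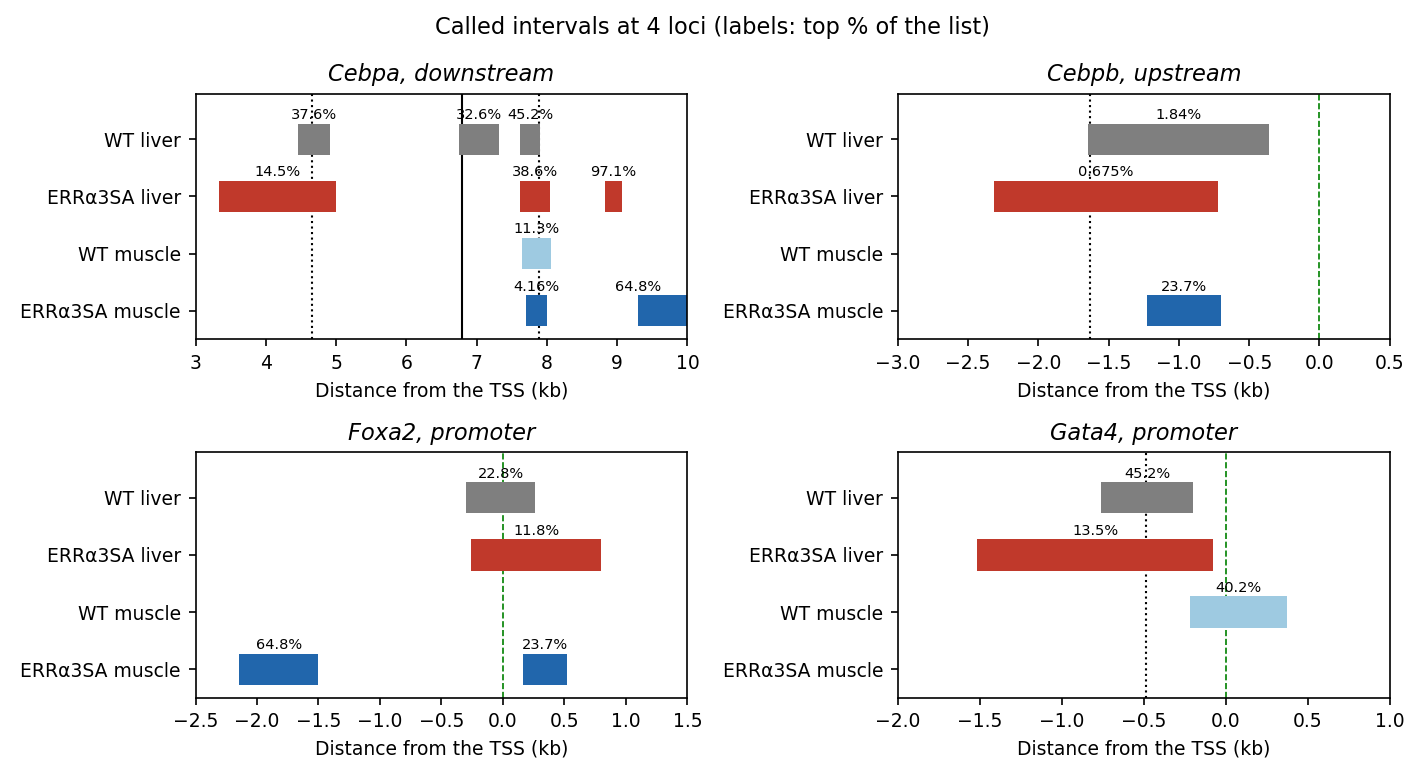
Called intervals in each list at *Cebpa* downstream, *Cebpb* upstream and the *Foxa2* and *Gata4* promoters, drawn to width by distance from the TSS (kb), with each interval's top percent above it. Solid lines mark the exact ERRE, dotted lines the looser form and green dashes the TSS; the *Cebpa* element at +7.9 kb lies within intervals of all 4 lists, and the ERRα3SA liver interval is wider than the WT one in each panel where they overlap.

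Among the FOXA genes, *Foxa2*, whose product opens chromatin at fasting-responsive liver enhancers, had its strongest interval at the promoter. In WT liver chr2:148046708-148047267 had a score of 75 and rank 4981 (top 22.8%), with its centre 18 bp upstream of a TSS. In ERRα3SA liver chr2:148046168-148047230 had a score of 160 and rank 3426 (top 11.8%), and the centres were 288 bp apart. In ERRα3SA muscle chr2:148046445-148046806 covered the same promoter at rank 11987 (top 23.7%), beside a weaker interval 1824 bp upstream at rank 32824, and in WT muscle there was no *Foxa2* interval within 20 kb. ERRα3SA liver had further intervals at +4.7 kb and +14.9 kb, at ranks 18865 and 15499. No AAGGTCA, the core common to the ERRE forms, was found in the promoter intervals.

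*Foxa1*, which encodes the pioneer factor partly redundant with FOXA2 in liver development, had only weak liver intervals. The shared one was in exon 2 of 2, at rank 16370 (top 75.0%) in WT liver and rank 18865 (top 65.0%) in ERRα3SA liver, with centres 248 bp apart. ERRα3SA liver also had an interval in the promoter, centred 369 bp upstream, at rank 18865. In ERRα3SA muscle the exon 2 interval ranked 11987 (top 23.7%) and another lay 2593 bp upstream, whereas WT muscle had 1 at +7.5 kb.

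*Foxa3*, which encodes the FOXA factor that maintains glucose transporter expression in fasted liver, had a different interval in each liver list. In WT liver it lay at the TSS (centre at +143 bp, rank 16370), in sequence that the annotation assigns to the promoter of the neighbouring gene *Sympk*. In ERRα3SA liver it lay in exon 2 of 2 at +8.8 kb and rank 18865, overlapping a WT muscle interval centred at +8.9 kb with rank 10219 (top 40.2%). The liver intervals of *Foxa3* therefore lay more than 8 kb apart.

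*Onecut1*, which encodes HNF6, a regulator of bile duct and hepatocyte genes, had 2 intervals in each liver list and none in either muscle list at any distance. The WT liver intervals lay in exon 1 at +993 bp (rank 12528, top 57.4%) and in the intron at +10.1 kb (rank 16370). The ERRα3SA liver intervals lay in the same intron at +3.2 kb (rank 13000, top 44.8%) and +16.0 kb (rank 22579, top 77.8%). None of the 4 overlapped another.

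*Gata4*, which encodes a zinc finger factor of endoderm, heart and liver sinusoidal cells, had its strongest interval at the promoter. In WT liver chr14:63245470-63246033 had a score of 44 and rank 9851 (top 45.2%), and in ERRα3SA liver chr14:63245347-63246787 had a score of 143 and rank 3915 (top 13.5%). Their centres lay 316 bp apart, and both contained TTAAGGTCA at chr14:63245751-63245759, 4 bp from the centre of the WT interval and 312 bp from that of the ERRα3SA interval. A WT muscle interval (rank 10219, top 40.2%) overlapped the edge of the WT liver one from the TSS side and did not reach the element. The remaining *Gata4* intervals were each in 1 list: +3.6 kb in WT liver, −14.1 kb in ERRα3SA liver, and −10.6, −6.5 and +4.6 kb in ERRα3SA muscle.

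*Prox1*, which encodes a homeodomain corepressor that binds ERRα and PGC-1α and restrains their metabolic targets in liver, had the liver pair with the smallest distance between centres. An interval 3.6 kb upstream was called in both livers with centres 10 bp apart, at rank 12528 (top 57.4%) in WT and 15059 (top 51.9%) in ERRα3SA. WT liver had another in intron 1 at +6.3 kb and ERRα3SA liver another at −8.3 kb, ranks 16370 and 23394. In ERRα3SA muscle the only *Prox1* interval within 20 kb lay 17889 bp upstream, at rank 7851 (top 15.5%) and in a LINE repeat.

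Between genotypes, the liver intervals of these genes met by position less often under the centre limit than under overlap. With centres within 300 bp, 4 of 13 WT intervals (30.8%, 12.7 to 57.6) and 4 of 18 ERRα3SA intervals (22.2%, 9.0 to 45.2) had a partner, against 49.2% and 34.2% of all intervals within 20 kb of a TSS. By at least 1 shared base it was 7 of 13 and 7 of 18, against 55.9% and 38.9%. The counts of 13 and 18 are too small to tell either share from that of all intervals. The 7 overlapping pairs belonged to 6 genes, since *Foxa3* and *Onecut1* had none annotated to them. Merged by shared bases, the liver intervals formed 24 sites, of which 7 were called in both livers, 6 in WT alone and 11 in ERRα3SA alone.

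In all 7 overlapping pairs the ERRα3SA interval was wider and had the better top percent. Top percent divides the rank by the list length, and the ERRα3SA list is longer (29040 against 21813 intervals). By rank number the WT interval was ahead at *Foxa1* (16370 against 18865), *Cebpa* +7.8 kb (9851 against 11212) and *Prox1* (12528 against 15059). The ERRα3SA interval was ahead by rank number in the remaining pairs. Over all 6267 overlapping liver pairs within 20 kb of a TSS, the ERRα3SA interval had the better top percent in 64.5% and was wider in 58.3%. The ratio of widths, ERRα3SA over WT, ranged from 1.24 at *Cebpb* to 3.67 at *Cebpa* +4.7 kb, with a median of 1.90, where that of all pairs was 1.09. These pairs come from the same pair of libraries, so they are not replicates of the genotype, and the part of library depth in width and rank was not tested.

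**Figure D4:**
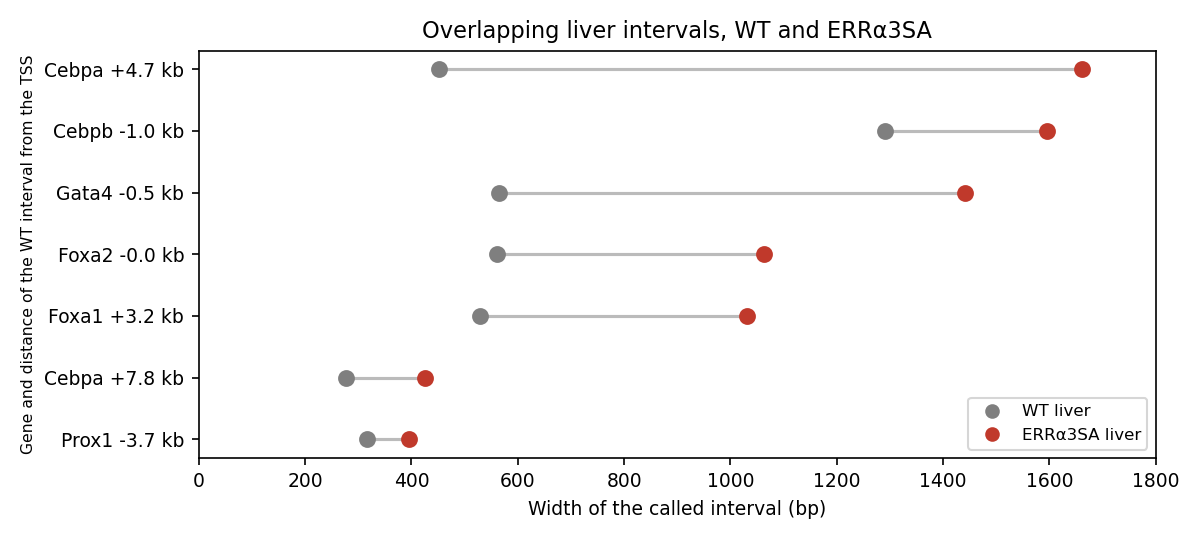
Width in bp of the 7 pairs of overlapping liver intervals, WT in grey and ERRα3SA in red, joined by a line per pair and labelled by gene and by the distance of the WT interval from the TSS. The red point lies to the right in all 7 pairs, with the smallest ratio at *Cebpb* (1.24) and the largest at *Cebpa* +4.7 kb (3.67).

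Against muscle of the same genotype, 1 of 13 WT liver intervals and 2 of 18 ERRα3SA liver intervals had a partner by centres, against 17.3% and 22.5% of all intervals within 20 kb. By shared bases it was 2 of 13 and 4 of 18, against 22.0% and 28.8%. The WT pairs were *Cebpa* +7.8 kb and the *Gata4* promoter. The ERRα3SA pairs were *Cebpa* +7.8 kb, *Cebpb* −1 kb, *Foxa1* exon 2 and the *Foxa2* promoter. Of the 24 liver sites, 7 overlapped an interval of either muscle list and 17 did not, and another 12 sites were in muscle without liver. Within muscle, the genotypes met at *Cebpa* +7.8 kb alone, 1 of 7 WT and 1 of 13 ERRα3SA intervals, against 23.4% and 12.9% of all.

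**Figure D5:**
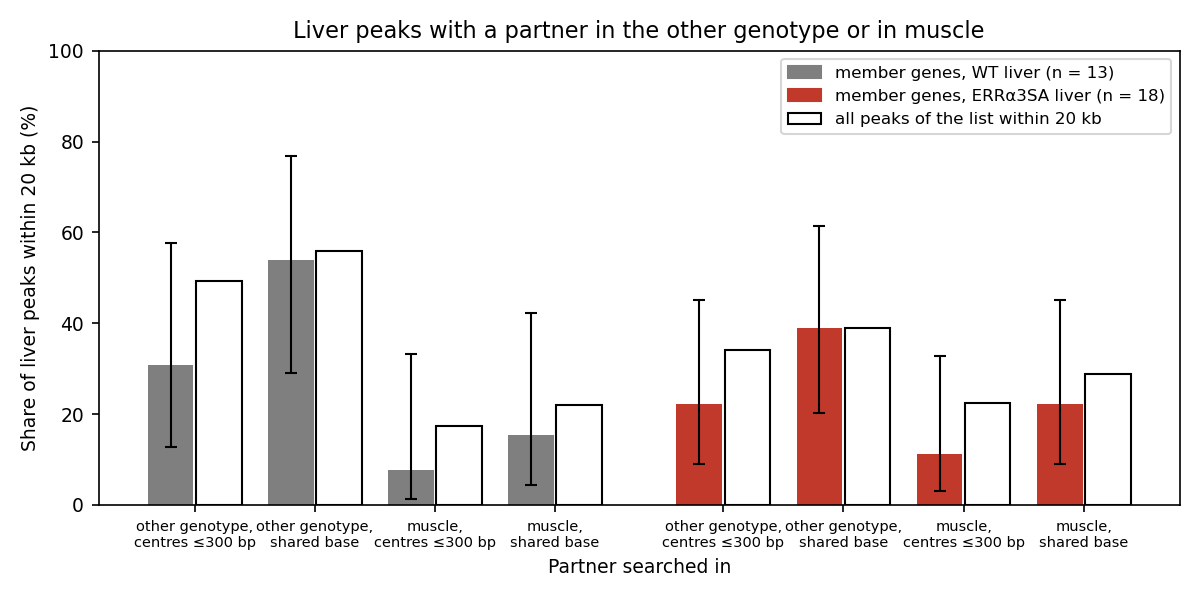
Share (%) of liver intervals with a partner in the other genotype or in muscle of the same genotype, by centres within 300 bp or by a shared base. Filled bars are the 8 genes (13 intervals in WT liver, 18 in ERRα3SA liver) with 95% Wilson intervals, and white bars are all intervals of the list within 20 kb of a TSS; the white bar lies within the interval of the filled one in all 8 pairs.

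By position, 3 of 13 WT liver and 4 of 18 ERRα3SA liver intervals were annotated as promoter, against 11.0% and 12.0% of all intervals within 20 kb. The promoter intervals belonged to *Foxa2*, *Foxa3* and *Gata4* in WT liver and to *Foxa1*, *Foxa2*, *Gata4* and *Cebpa* in ERRα3SA liver. Downstream of the TSS lay 9 of 13 and 10 of 18, against 58.5% and 59.5% of all. Their base composition was rich in CpG: the median CpG fraction was 0.038 in WT liver and 0.0318 in ERRα3SA liver, beside 0.0142 and 0.0144 over all such intervals, and the median GC fraction was 0.533 and 0.548 beside 0.511 and 0.514. Median widths were 452 and 502.5 bp, beside 461 and 449 bp.

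None of the members' intervals held TCAAGGTCA in their central 300 bp in any list. The exact ERRE was there in 15.2% of all intervals within 20 kb of a TSS in WT liver, 14.9% in ERRα3SA liver, 4.45% in WT muscle and 4.86% in ERRα3SA muscle. The upper end of the 95% interval of a count of 0 was 22.8% for 13 intervals and 17.6% for 18, so these numbers cannot tell a share of 0 from that of all liver intervals. In the whole interval it was in 1 of 13 WT and 0 of 18 ERRα3SA liver intervals, against 21.4% and 20.4% of all. The 95% intervals were 1.37 to 33.3% and 0 to 17.6%, so only the ERRα3SA one lay below the share of all. The genes were chosen with earlier results known, so this is no test. The looser TNAAGGTCA was in the central 300 bp of 3, 2, 1 and 1 intervals, in the order of the lists above, against 20%, 19.6%, 6.19% and 6.86%. In the whole interval the looser form was in 5 of 13 WT and 4 of 18 ERRα3SA liver intervals, against 28.3% and 26.8% of all. AAGGTCA alone was in the central 300 bp of 3 of 13 and 4 of 18 liver intervals, beside 35.8% and 35.5% of all. A match is a string of letters in a window, and its absence draws nothing about binding.

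Elements named for the families of the 8 genes themselves were in few of the central 300-bp windows of liver intervals. The C/EBP element TTGCNNAA was in 2 WT and 2 ERRα3SA intervals, and AGATAA, the GATA element, in 2 and 2, where the shares of all intervals were 10.5%, 10.7%, 10.3% and 10.1%. The forkhead element TGTTTAC was in none of either list, beside 3.41% and 3.10% of all. In the whole interval it was in 0 of 13 WT liver intervals and in 3 of 18 ERRα3SA liver intervals (16.7%, 5.84 to 39.2), of *Foxa1*, *Cebpa* and *Prox1*, against 5.68% and 5.61% of all. The Onecut element (ATCGAT or ATTGAT) was central in 0 WT and 1 ERRα3SA interval, against 7.74% and 7.56%. In whole intervals it was in 1 of 13 and 2 of 18, against 13.6% and 13.2%. The C/EBP element was in 2 of 13 and 4 of 18 whole intervals, against 18.7% and 18.4%. The GATA element was in 3 of 13 and 4 of 18, against 18.3% and 17.5%. In muscle the GATA element was in 0 of 7 whole WT intervals, against 13.4% of all. In ERRα3SA muscle it was in 6 of 13 (46.2%, 23.2 to 70.9), against 13.8%. None of these shares was tested against that of all. At *Cebpb* −1 kb a C/EBP element lay 35 bp from the centre of the WT liver interval and 484 bp from that of the ERRα3SA one. At *Cebpa* +7.8 kb these distances were 25 bp and 41 bp.

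Intervals within 20 kb of these TSSs but annotated to a nearer gene were not counted as members' intervals. The one ranked highest in both livers lay 18 kb downstream of the *Cebpb* TSS and was annotated to the noncoding gene *A530013C23Rik*. It was called in all 4 lists, at rank 1289 (top 5.91%) in WT liver, 2298 (top 7.91%) in ERRα3SA liver, 3863 (top 15.2%) in WT muscle and 32824 (top 64.8%) in ERRα3SA muscle. It held the exact ERRE at chr2:167707010-167707018 and again at chr2:167707039-167707047, both on the minus strand. The window is shown because it held the exact element near a member in every list. It is chr2:167706979-167707107 on GRCm38.p6, minus strand, without exonic bases and with both elements in capitals.
A530013C23Rik: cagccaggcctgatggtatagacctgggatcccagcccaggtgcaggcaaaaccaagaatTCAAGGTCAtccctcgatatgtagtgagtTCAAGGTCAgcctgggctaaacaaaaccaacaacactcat

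The distance limit of 20 kb set which intervals counted. The farthest inside it were *Prox1* −17889 bp in ERRα3SA muscle, *Onecut1* +16023 bp and *Foxa2* +14865 bp in ERRα3SA liver. The nearest outside were *Cebpa* +20978 bp in ERRα3SA muscle, *Prox1* −21944 bp in WT liver, *Cebpa* −21947 bp in WT muscle and *Cebpa* +22636 bp in WT liver. Without the limit the 8 genes had 23, 41, 13 and 37 intervals, and the best-ranked liver intervals of *Prox1* lay among the added ones. At +49 kb it had overlapping intervals in both livers, rank 3500 (top 16.0%) in WT and 2298 (top 7.91%) in ERRα3SA, with centres 186 bp apart. At +64 kb another pair ranked 7078 and 4165, 115 bp apart. *Foxa2* had a pair at +64 kb, rank 12528 in WT and 5616 (top 19.3%) in ERRα3SA, and *Cebpa* a pair at +23 kb, rank 12151 and 6515.

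Lists of related genes gave the following counts with an interval within 20 kb, in the order WT liver, ERRα3SA liver, WT muscle and ERRα3SA muscle. Of 25 family relatives of the 8 genes 14, 17, 12 and 17 had one, and of 20 other liver regulators 15, 17, 8 and 15. Of 16 muscle regulators 9, 8, 9 and 9 had one. The shares of all protein-coding genes were 29.9, 37.7, 34.5 and 47.9% in the same order. Relatives, other liver regulators and muscle regulators each stood above the share of all genes in every peak list. In WT liver their shares were 56.0, 75.0 and 56.2%. A liver share above that of all genes was therefore not particular to the 8 genes. None of these differences was tested. The best-ranked liver interval of the relatives was at *Foxk1*, a forkhead factor of fasting metabolism (ranks 563 and 1010), and that of the other liver regulators at *Bhlhe40*, a circadian repressor (605 and 826), so that *Cebpb* stood above both in each liver list. The best of the muscle regulators was at *Tead1* (2403 and 3657). Intervals measure binding and not expression, so they are a poor check of the tissue labels. Of 10 liver marker genes 4, 7, 3 and 3 had an interval and of 10 muscle marker genes 6, 3, 7 and 8. In WT liver the muscle markers thus outnumbered the liver markers, against the label. In the other lists the larger count was that of the tissue's own markers. The best-ranked liver intervals of those lists were at *Pck1* in both livers, at *Mb* in WT liver and at *Myh4* in ERRα3SA liver.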

How the data were processed

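ERRα ChIP-seq peak lists of liver and skeletal muscle from WT and ERRα3SA mice were used, 1 per genotype and tissue. The 4 input samples hold no file here. Per the submitters' processing notes, the authors used Trimmomatic 0.36, BWA 0.7.12, Picard 2.0.1, MACS2 2.1.1.20160309 and HOMER 4.9.1, with mm10 as the build. Each deposited peak has a score from the authors' peak caller against input, read only as a rank within its list (ties take the best rank). The deposited GC and CpG values are fractions of the interval. The deposited positions and the distance of the interval's centre from the nearest TSS are in bp.

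The methods describe peaks of fixed size, whereas the deposited intervals vary in width, so elements were searched in the central 300 bp and in the whole interval. Sequences were read from GRCm38.p6, on which the GC fraction of every listed interval was recomputed and equalled the deposited one within rounding. Strands and exons come from GENCODE. The TSS limit of 20 kb and the centre limit of 300 bp follow the study's methods. Sites merge intervals that share a base. Python 3.11.15, pandas 2.3.3, pysam 0.24.0 and scipy 1.17.1 were used, and the counting was tested on simulated data. The members, gene lists and alternatives were chosen with earlier results of these data known. Named genes were the 8 members, with the best-ranked liver gene of each other list. The neighbouring genes A530013C23Rik, Gm16551 and Irf2bp1 and the distal intervals were added after their values were seen. So was the comparison of widths and ranks in overlapping liver intervals. No test was run, as each group had 1 library.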

Additional observations from a re-analysis of the deposited data

How the results depend on the processing

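Recomputed under each alternative, 78 values stayed within 1.5 times (counts) or the 95% interval (ranks) of the value reported and 78 did not. This tally does not measure robustness. Gene and interval counts of the shorter WT lists at equal length, and ERRE counts of 0 under the score limits, could not change. The interval of a rank treated the rank as a count out of its list, so small shifts fell outside it, and every best rank did. Values are given in the order WT liver, ERRα3SA liver, WT muscle, ERRα3SA muscle. With scores of at least 50, genes with an interval fell to 3, 4, 1 and 1 and intervals to 3, 5, 1 and 2, while liver intervals shared between genotypes were 1 and 1 and with muscle 0 and 1. With scores of at least 100, genes were 1, 4, 0 and 1, intervals 1, 4, 0 and 1, and shared intervals 0 in each case. With lists of equal length ERRα3SA liver kept 13 intervals at 7 genes, without Foxa3, and ERRα3SA muscle kept 7 intervals. Within 5 kb there were 10 intervals at 7 genes in ERRα3SA liver, 2 genes and 2 intervals in WT muscle and 7 intervals in ERRα3SA muscle, and 0 and 1 liver intervals were shared with muscle. Within 50 kb ERRα3SA liver had 29 and ERRα3SA muscle 21, and without a limit the lists had 23, 41, 13 and 37. Counting intervals annotated to other genes gave 8 and 8 shared between genotypes, 2 in WT liver shared with muscle, and the ERRE in 1 WT liver, 3 ERRα3SA liver and 1 WT muscle interval. Sharing between genotypes was 2 and 2 with centres within 100 bp, 8 and 7 within 1000 bp and 7 and 7 by a shared base. Sharing with muscle was 3 and 5 within 1000 bp and 2 and 4 by a shared base. TNAAGGTCA in the centre gave 3, 2, 1 and 1, the exact ERRE in the whole interval 1 in WT liver, and TNAAGGTCA in the whole interval, chosen after seeing the data, 5, 4, 1 and 1. Ranked among intervals within 20 kb, the best top percent in WT and ERRα3SA liver was 77.9 and 67.2 for both Foxa1 and Foxa3, 26.3 and 13.1 for Foxa2, 36.9 and 16.0 for Cebpa, 2.19 and 0.801 for Cebpb, 61.8 and 47.4 for Onecut1, 50 and 14.9 for Gata4, and 61.8 and 54.2 for Prox1. The presence of all 8 genes in both livers thus did not hold under either score limit or within 5 kb, whereas Cebpb remained under both score limits in both livers. At equal list length only Foxa3 was lost, and that by the order of tied scores. The cause of the other changes was not tested beyond what the limits themselves remove. No paired analysis was possible because each group had 1 library, and for the same reason no replicate could be left out. Read numbers were not analysed here, so depth sets an unknown limit on which weak intervals were called.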
